A study of Bos taurus with 21 samples.

Results

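The genes examined were 8 genes of de novo fatty acid synthesis, read in milk somatic cells, the cells shed into milk, of 21 Holstein dairy cows. They were taken by symbol, ACLY, ACSS2, ACACA, FASN, ELOVL6, SCD, SREBF1 and FABP3, and all 8 were found among the 13570 gene rows of the count files. Of those rows, 12333 had a count in at least 1 cow, and these genes were tested. In the mammary gland, short and medium chain fatty acids of milk fat are built from acetyl-CoA. ACSS2 makes cytosolic acetyl-CoA from acetate, the main carbon source in ruminants, and ACLY makes it from citrate. ACACA carboxylates acetyl-CoA to malonyl-CoA, FASN builds the chain from malonyl-CoA, ELOVL6 lengthens saturated chains and SCD puts a double bond into them. SREBF1 encodes a transcription factor that is a known activator of these enzymes, and FABP3 encodes a carrier that binds fatty acids in the cytosol of milk-secreting cells.

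The cows stood on 1 farm and were grouped by a production index into 9 high yield cows (HY) and 12 low yield cows (LY), with parity 2 to 4 in each group and no treatment. The lactation period was 41 to 268 days in HY and 52 to 270 days in LY. The milk fat trait, a value of the labels with no stated kind or unit, was -10.1 to 10.9 in HY and -14.4 to -2.78 in LY. The milk yield trait, which the paper calls a breeding value, was 181 to 468 in HY and -404 to 86.9 in LY. Each cow gave 1 library, and the milk was drawn by hand a few hours after the evening milking.

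Counts on genes were 7878557 to 28541904 per cow. The 4 casein genes, which encode the main milk proteins, took 0.0876% to 44.2% of the counts of a cow, and this percentage is called the casein share. In 4 cows (HY 7, HY 1, LY 12 and HY 4, in rising order) it was at most 0.370%, and in the other 17 it was at least 1.64%. These 4 cows stood apart, so the slopes on the casein share over all cows, and the list counts made from them, are also given over the other 17. Milk also holds macrophages, neutrophils and lymphocytes, so a library is a mixture, and fewer cells of a type cannot be told apart from less RNA per cell. Levels are given as CPM, counts brought to a common library size with the TMM factors of edgeR. CPM is not corrected for transcript length, so levels were not compared between genes.

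The first question was how the 8 genes varied with the casein share, a measure of milk protein transcripts in the same library. A count model was fitted over all genes with log2 of the casein share as the term, so that each slope is the log2 change of a gene per doubling of the casein share. By edgeR's quasi-likelihood test at a Benjamini-Hochberg adjusted p under 0.05, 7 of the 8 genes were called. FABP3, SCD, FASN, ACSS2 and ACACA rose with the casein share, SREBF1 and ACLY fell, and ELOVL6 was not called. Among the 12329 genes tested, 20.1% were called, 10.3% as higher and 9.73% as lower. The 2 calls of a fall were less stable than the 5 calls of a rise, as given for each gene.

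**Figure D1:**
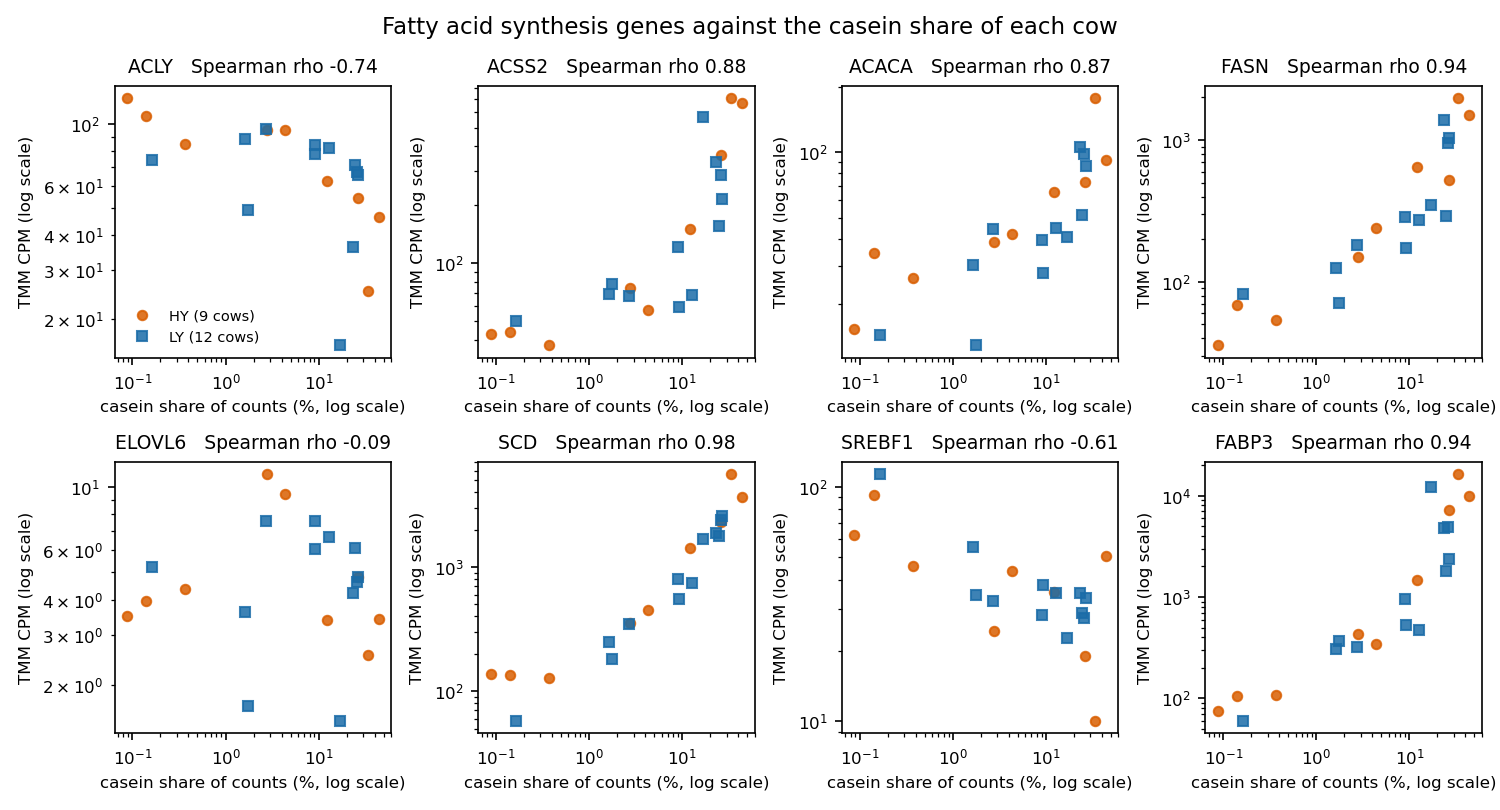
TMM CPM of each gene (log scale) against the casein share of counts in percent (log scale), 1 point per cow, circles for the 9 HY cows and squares for the 12 LY cows. SCD, FASN and FABP3 climb over most of the axis, and ACSS2 climbs steeply among the cows richest in casein. ELOVL6 shows no clear trend (Spearman rho -0.09).

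The pair of enzymes that supply cytosolic acetyl-CoA moved in opposite directions. ACSS2, which uses acetate, was at 37.5 CPM in the lowest HY cow, 74.5 at the median and 709 in the highest, and in LY at 50.2, 99.7 and 569. Both groups overlapped over nearly their whole ranges, and the highest values were in HY 9, HY 8 and LY 2. ACSS2 rose by 0.42 on the log2 scale per doubling of the casein share (SE 0.06, edgeR adjusted p = 2.90e-05), and over the 17 cows its slope was 0.68 (SE 0.11, edgeR adjusted p = 4.82e-04). In the 4 cows poorest in casein it was 37.5 to 50.2 CPM, below all the other 17 cows, which were at 57.0 to 709 CPM. Its Spearman rho with the casein share was 0.88 and its Pearson r 0.80, each with a permutation p of 1e-05, the smallest that the 100000 resamples can give. Without the 2 cows farthest from the median casein share r was 0.79, and over the 17 cows it was 0.80.

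ACLY, which uses citrate, was at 25.3, 84.4 and 123 CPM in the lowest, median and highest HY cow and at 16.1, 72.7 and 95.6 CPM in LY. The highest value was in HY 7, the cow with the lowest casein share, and the lowest were in LY 2 and HY 9, which were among the 3 highest for ACSS2. ACLY fell by 0.13 on the log2 scale per doubling of the casein share (SE 0.04, edgeR adjusted p = 0.0355). Its Spearman rho was -0.74 (permutation p = 0.00024) and its Pearson r -0.56 (permutation p = 0.00826). Without the 2 farthest cows r was -0.45, and over the 17 cows it was -0.49. Over the 17 cows its slope was -0.21 (SE 0.09, edgeR adjusted p = 0.221), so ACLY was not called there. The call of ACLY was lost in 9 of the 21 fits that each left out 1 cow, in which its adjusted p by edgeR was 0.0300 to 0.0935. The 9 cows were HY 1, HY 3, HY 6, HY 7, HY 8, HY 9, LY 8, LY 10 and LY 12, and the slope in all 21 fits was -0.14 to -0.10. It was also lost with another normalization, where the adjusted p was 0.0595.

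The ratio of ACSS2 to ACLY counts compares both genes inside 1 library and needs no scaling between cows. It was 0.347 in the lowest cow, HY 7, 1.45 at the median and 35.3 in the highest, LY 2. In the 4 cows poorest in casein ACSS2 had fewer counts than ACLY, at 0.347 to 0.678 per ACLY count, and in the 4 richest it had more, at 3.23 to 28.0. The ratio was above 1 in 11 of the 21 cows, and its Spearman rho with the casein share was 0.87, and 0.77 over the 17 cows. The genes differ in length, so a ratio of 1 is not equal abundance, and only the change of the ratio between cows can be read.

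**Figure D2:**
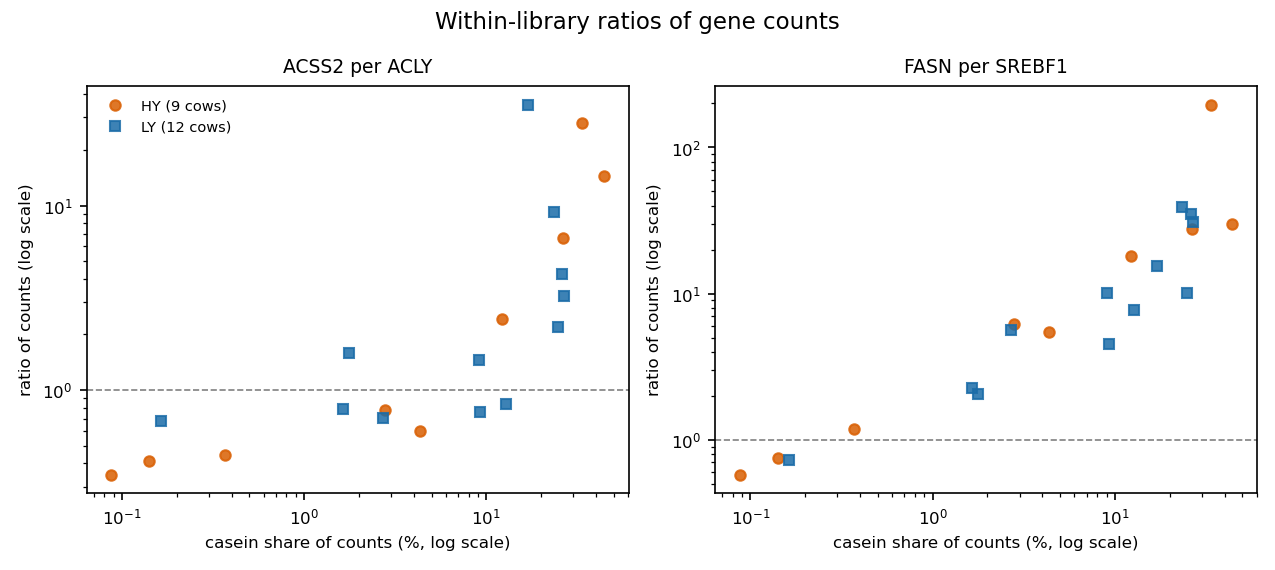
Ratio of ACSS2 to ACLY counts (left) and of FASN to SREBF1 counts (right) in each cow, both on a log scale, against the casein share in percent (log scale). Circles are the 9 HY cows and squares the 12 LY cows, the dashed line marks a ratio of 1, and both ratios are lowest in the same cow, HY 7, at 0.347 and 0.576.

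ACACA, the carboxylase that makes the malonyl-CoA used by FASN, had 15.4, 42.3 and 177 CPM in the lowest, median and highest HY cow and 13.0, 42.5 and 106 CPM in LY. The groups had nearly the same median and overlapped, and HY 9 was highest. ACACA rose by 0.28 on the log2 scale per doubling of the casein share (SE 0.05, edgeR adjusted p = 1.61e-04), and by 0.44 over the 17 cows (SE 0.09, adjusted p = 0.00252). Its Spearman rho was 0.87 and its Pearson r 0.79, both with a permutation p of 1e-05, and r was 0.82 without the 2 farthest cows. The lowest value over all cows was in LY 4, which was not among the 4 cows poorest in casein.

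FASN, the synthase itself, covered a wider range than ACACA. It was at 35.7, 238 and 1971 CPM in the lowest, median and highest HY cow and at 70.8, 281 and 1380 CPM in LY. The 2 groups overlapped, with HY 7 the lowest cow and HY 9 the highest, a 55.3-fold span against 13.6-fold for ACACA. FASN rose by 0.55 on the log2 scale per doubling of the casein share (SE 0.06, edgeR adjusted p = 5.68e-07), with a Spearman rho of 0.94 and a Pearson r of 0.89 (permutation p of 1e-05 each). Without the 2 farthest cows r was 0.87, and over the 17 cows the slope was 0.81 (SE 0.11, edgeR adjusted p = 5.88e-05). Counts of FASN per count of ACACA were 2.00 to 16.4 over the cows, with a rho of 0.87 with the casein share (0.81 over the 17 cows), so the synthase transcript gained on the carboxylase transcript where the casein share was high.

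SCD, the desaturase, followed the casein share most closely of the 8 genes. In HY it was at 128 CPM in the lowest cow, 448 at the median and 5617 in the highest, and in LY at 57.5, 777 and 2602 CPM. The 4 cows poorest in casein had 57.5 to 137 CPM and the other 17 had 182 to 5617 CPM, with no overlap between these cows, while HY and LY overlapped. SCD rose by 0.61 on the log2 scale per doubling of the casein share (SE 0.06, edgeR adjusted p = 3.53e-08). Its Spearman rho was 0.98 and its Pearson r 0.94, each with a permutation p of 1e-05, and r was 0.97 without the 2 farthest cows. Inside LY the rho of SCD was 0.97, the highest of the 8 genes. Inside HY it was 0.92, below those of ACACA and FABP3 (0.97 each) and FASN (0.95). Over the 17 cows its slope was 0.90 (SE 0.09, edgeR adjusted p = 1.71e-06).

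ELOVL6, the elongase of saturated chains, was counted least, at 13 to 276 counts per cow. It was at 2.55, 3.97 and 11.1 CPM in the lowest, median and highest HY cow and at 1.49, 5.01 and 7.60 CPM in LY, with overlapping groups. The highest values were in HY 2 and HY 5, cows of intermediate casein share, and the lowest in LY 2 and LY 4. ELOVL6 was not called with the casein share, the slope being -0.0017 on the log2 scale (SE 0.06, edgeR adjusted p = 0.990) and -0.17 over the 17 cows (SE 0.13, adjusted p = 0.485). Its Spearman rho was -0.09 (permutation p = 0.704) and its Pearson r -0.02 (permutation p = 0.935). Counts of SCD per count of ELOVL6 thus spanned 11.03 in LY 12 to 2200 in HY 9, with a median of 113 and a rho with the casein share of 0.90, or 0.87 over the 17 cows.

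SREBF1, the transcription factor, was at 10.02, 43.5 and 91.8 CPM in the lowest, median and highest HY cow and at 22.6, 34.0 and 113 CPM in LY. The highest value was in LY 12 and the next in HY 1, both among the 4 cows poorest in casein, and the lowest in HY 9, the cow with the highest FASN, SCD, FABP3, ACACA and ACSS2. SREBF1 fell by 0.18 on the log2 scale per doubling of the casein share (SE 0.04, edgeR adjusted p = 0.00143). Its Spearman rho was -0.61 (permutation p = 0.00404) and its Pearson r -0.72 (permutation p = 0.00018), and r was -0.63 without the 2 farthest cows. Over the 17 cows left without the 4 poorest in casein r was -0.36, the slope -0.10 (SE 0.08) and the edgeR adjusted p 0.491. SREBF1 was thus not called without those 4 cows, and it was called in all 21 fits that each left out 1 cow. The number of FASN counts per SREBF1 count was 0.576 in HY 7, 7.77 at the median and 197 in HY 9, with a rho of 0.92 with the casein share and of 0.86 over the 17 cows.

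FABP3, the fatty acid carrier, had the steepest slope and the widest range. In HY it was at 75.4 CPM in the lowest cow, 434 at the median and 16291 in the highest, and in LY at 59.8, 749 and 12143 CPM, so that the cows spanned a 272-fold range while the groups overlapped. The 4 cows poorest in casein had 59.8 to 109 CPM, below the other 17, which had 306 to 16291 CPM. FABP3 rose by 0.84 on the log2 scale per doubling of the casein share (SE 0.10, edgeR adjusted p = 1.06e-06), with a Spearman rho of 0.94 and a Pearson r of 0.90 (permutation p of 1e-05 each). Without the 2 farthest cows r was 0.89, and over the 17 cows the slope was 1.18 (SE 0.18, edgeR adjusted p = 2.09e-04). LY 2 was second highest for FABP3 at 12143 CPM and had 346 CPM of FASN, and its 35.1 FABP3 counts per FASN count were the highest ratio of all cows.

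**Figure D3:**
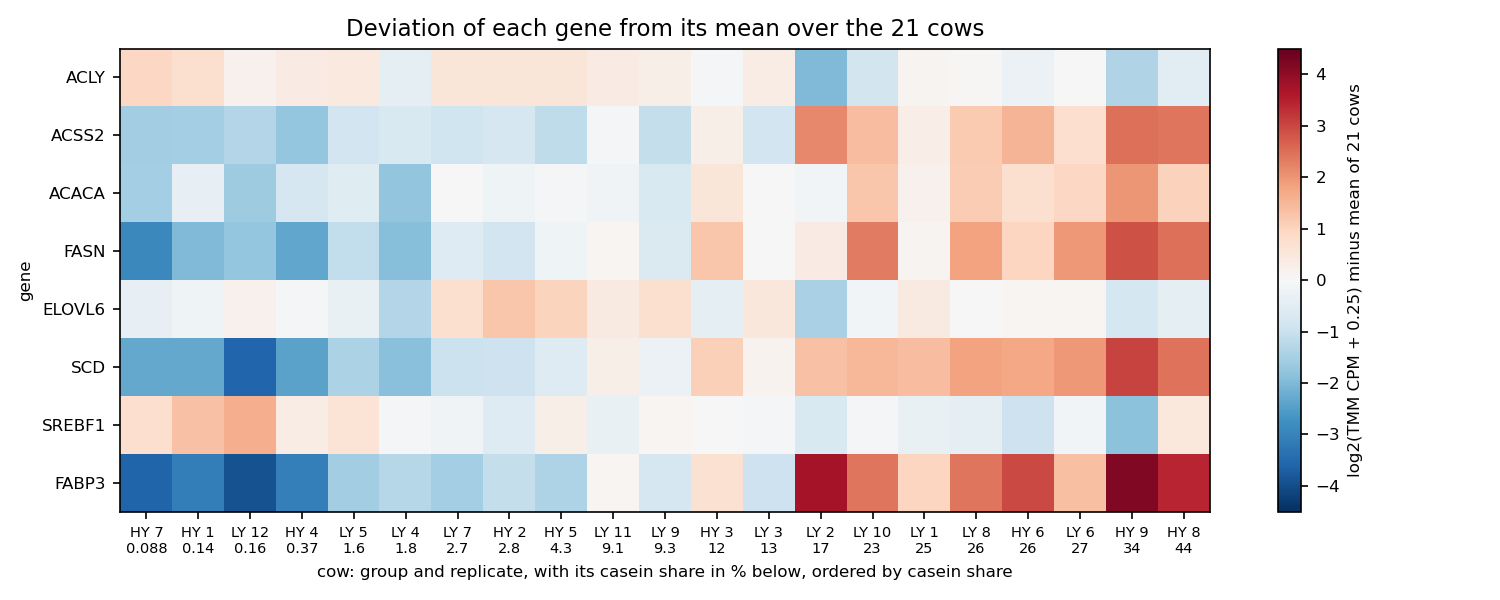
Deviation of each gene from its mean over the 21 cows, as log2(TMM CPM + 0.25), with cows ordered by casein share from left to right and labelled by group, replicate and casein share in percent. ACSS2, ACACA, FASN, SCD and FABP3 turn from below to above their mean along the row, ACLY and SREBF1 tend the other way, and HY and LY cows are interleaved.

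The slopes were also fitted inside each group. In the 9 HY cows ACSS2, ACACA, FASN, SCD and FABP3 were called as higher with the casein share, while 4.53% of all genes were called in either direction. SCD had a slope of 0.60 there (SE 0.08, edgeR adjusted p = 3.87e-04), and ACLY and SREBF1 were not called, with adjusted p of 0.137 and 0.239. In the 12 LY cows those 5 rising genes and SREBF1 were called, against 9.2% of all genes. SCD had a slope of 0.75 in LY (SE 0.07, edgeR adjusted p = 3.38e-05), SREBF1 one of -0.22 (SE 0.04, adjusted p = 0.00674), and ACLY one of -0.07 (SE 0.08, adjusted p = 0.658). The difference of slopes between HY and LY, tested as an interaction by edgeR, was called for none of the 8 genes, with the lowest unadjusted p at 0.111 for SCD, and for 0% of all genes, although 6.46% had an unadjusted p under 0.05. Without the 4 cows poorest in casein, an alternative chosen after seeing the data, the 5 rising genes were called in the 17 cows and neither falling gene was, where 6.11% of all genes were called, 5.35% as higher and 0.758% as lower. ACLY then had a slope of -0.21 (edgeR adjusted p = 0.221). The cows also differed in the share of reads that mapped, and 16 cows formed a lower class (8 HY and 8 LY). Within it the Pearson r was 0.94 for SCD, 0.91 for FASN, 0.90 for FABP3, 0.83 for ACSS2, 0.79 for ACACA, -0.61 for ACLY and -0.69 for SREBF1. The higher class held 5 cows, and no correlation was computed in it.

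Markers of some of the cell types that milk can hold moved with the casein share too. Of all genes, 10.3% were called as higher with it and 9.73% as lower. Of 10 markers of mammary epithelium, 7 rose with the casein share. Their summed level was 34.8 to 229 CPM in the 4 cows poorest in casein and 163 to 4319 CPM in the other 17. All 7 further genes of milk secretion, such as LALBA, the gene of alpha-lactalbumin, rose, with a summed level of 898 to 1581 CPM in the 4 cows and 5242 to 473130 CPM in the 17. Of 9 macrophage markers, 7 fell, and their summed level was 5718 to 9011 CPM in the 4 cows against 1630 to 7144 CPM in the 17. None of 7 neutrophil, 6 T cell, 3 B cell and 2 adipocyte markers was called by edgeR, with 1 of these 18, the B cell gene MS4A1, at an unadjusted p under 0.05. The adipocyte markers summed to at most 2.38 CPM in any cow. The caseins and LALBA (at least 27.1 CPM) were counted in all cows, as were macrophage and neutrophil markers. The lowest level of an epithelial marker in any cow ran from 0.04 CPM for CLDN3 to 7.46 CPM for CDH1. Over the 17 cows, 5.35% of all genes were called as higher and 0.758% as lower. Among the markers, 5 of the 10 epithelial ones and all 7 genes of milk secretion rose there. Of the 9 macrophage markers 3 fell, and none of the 18 other markers was called. Their part in the slopes of the 8 genes was not tested. The casein share and the levels come from the same library, and with the casein counts removed before normalization the 5 rising genes and SREBF1 were still called, while ACLY had an adjusted p of 0.0534.

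The order of the cows was closely shared by some of the 8 genes. The Spearman rho over the 21 cows was 0.96 between FASN and SCD, 0.95 between SCD and FABP3, 0.95 between ACSS2 and FABP3, and 0.93 between ACACA and FASN. ACLY had a rho of -0.84 with ACSS2 and -0.81 with FABP3, and SREBF1 one of -0.55 with FASN and -0.71 with FABP3. ELOVL6 was near 0 with SREBF1 at -0.04 and reached 0.53 with ACLY. Over the 17 cows rho was 0.95 between FASN and SCD, 0.91 between SCD and FABP3, 0.92 between ACSS2 and FABP3, 0.93 between ACACA and FASN and -0.84 between ACLY and ACSS2, while it was -0.25 between SREBF1 and FASN and 0.82 between ELOVL6 and ACLY. These values describe libraries that share the spread in casein share. Among 9297 genes with a mean of at least 1 CPM, the 3 genes most like each of the 8 by Spearman rho were then listed. For FASN they were SDC2 at 0.98, CSN2 (beta-casein) at 0.97 and SERTAD4 at 0.97. SCD was nearest to SDC2 at 0.98, MUC15 at 0.98 and CSN2 at 0.98, and FABP3 to LALBA at 0.98, FAM174B at 0.98 and ESRP1 at 0.98. ACSS2 was nearest to CIDEA at 0.97, GSTM3 at 0.96 and SPINK4 at 0.96. The list of ACACA was LRRC16A at 0.94, FASN at 0.93 and PRKG2 at 0.93, the single case in which one of the 8 genes was among the nearest of another. The nearest genes of ACLY were WDR7 at 0.95, ADRBK2 at 0.95 and DAPK1 at 0.93, those of ELOVL6 were GALNT4 at 0.90, RALGPS2 at 0.89 and PARN at 0.88, and those of SREBF1 included PPIL2 at 0.92 and TMEM184B at 0.92.

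The second question was whether the genes changed with the stage of lactation. None of the 8 was called with the lactation period by edgeR, where 3 genes of 12333 (0.0243%) were. That count was 0 to 428 in the fits that each left out 1 cow, highest without LY 9, and 621 without the 4 cows poorest in casein, with none of the 8 called in any of them. At an unadjusted p under 0.05, ACSS2 and FABP3 were lower with longer lactation, 2 of 8 genes against 12.8% of all genes. ACSS2 had a slope of -0.79 on the log2 scale per 100 days (SE 0.32, unadjusted p = 0.0205, edgeR adjusted p = 0.154). The slope of FABP3 was -1.28 (SE 0.53, unadjusted p = 0.0226, adjusted p = 0.161). Without LY 2 neither gene was under an unadjusted p of 0.05 by edgeR (0.0683 for ACSS2 and 0.0608 for FABP3), and without HY 8 ACSS2 was not (0.0651). By single values the relation did not pass, with a Pearson r of -0.31 for ACSS2 (permutation p = 0.173) and -0.30 for FABP3 (permutation p = 0.192) and a Spearman rho of -0.18 (p = 0.436) and -0.21 (p = 0.360). The 2 cows farthest from the median lactation period were both at the early end, HY 1 at 41 days and LY 9 at 52 days. Without them r was -0.56 for ACSS2 and -0.52 for FABP3. The 4 highest ACSS2 values, 363 to 709 CPM, were in cows at 59 to 108 days (LY 2, HY 8, HY 6 and HY 9), and HY 1 at 41 days had 43.8 CPM. The 4 highest FABP3 values were in the same 4 cows. Those 4 cows had casein shares of 16.95% to 44.2%, and HY 1 was among the 4 cows poorest in casein. Of the 7 genes of milk secretion, 5 were lower with longer lactation at an unadjusted p under 0.05 by edgeR, LALBA (-1.43 per 100 days) and MUC1 (-1.68) among them, as were 2 of the 10 epithelial markers. Of all genes, 9.58% were higher and 12.8% lower at that threshold. Of the 7 neutrophil markers 3 were higher and 1 lower, and 1 of the 2 adipocyte markers was higher. None of the 9 macrophage, 6 T cell and 3 B cell markers was under 0.05, and no marker was called. The summed level of the genes of milk secretion had a rho of -0.18 with the lactation period, that of epithelial markers -0.11, of macrophage markers -0.04 and of neutrophil markers 0.11. Their part in the slopes of ACSS2 and FABP3 was not tested.

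**Figure D4:**
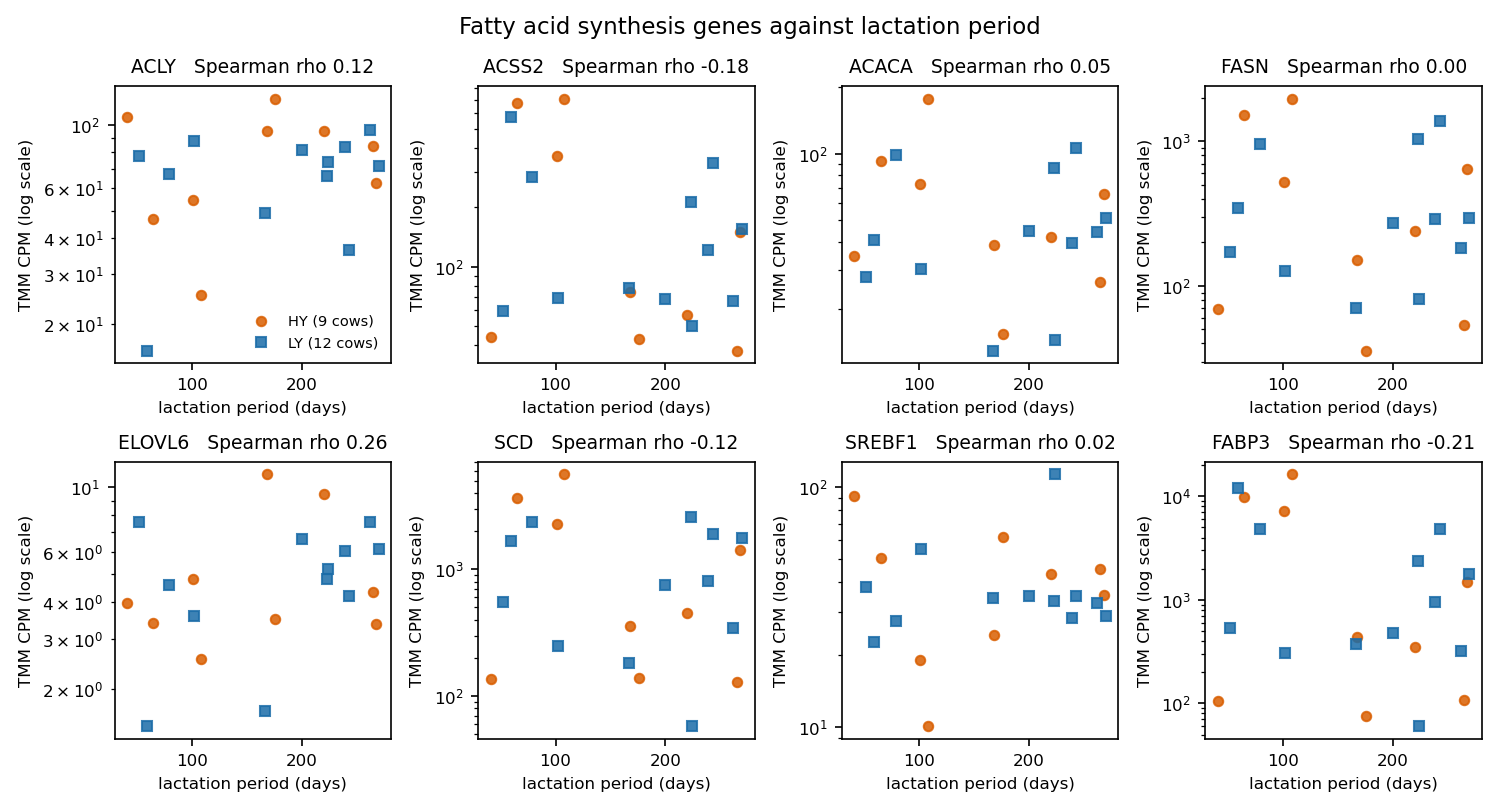
TMM CPM of each gene (log scale) against the lactation period in days, with circles for the 9 HY cows and squares for the 12 LY cows. The highest ACSS2 and FABP3 values lie between 59 and 108 days, and the rho of each gene with the days is at most 0.26 in size.

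The other 6 genes had an unadjusted p with the lactation period of 0.239 or more. Their slopes per 100 days were -0.50 for SCD (SE 0.42), -0.33 for FASN (SE 0.41), -0.19 for ACACA (SE 0.25) and -0.03 for SREBF1 (SE 0.20), and 0.14 for ACLY (SE 0.17) and 0.24 for ELOVL6 (SE 0.21). Inside HY the slope of ACSS2 was -1.31 (SE 0.55) and that of FABP3 -1.99 (SE 0.95), and inside LY they were -0.42 (SE 0.34) and -0.83 (SE 0.54). The slopes of HY and LY were not shown to differ by the interaction test of edgeR, with an unadjusted p of 0.199 for ACSS2 and 0.300 for FABP3, and 0% of all genes called. A relation of the casein share itself to the lactation period was not shown (Pearson r -0.09, permutation p = 0.698), which does not show that there is none. As given above, 5 of the 7 genes of milk secretion were lower with longer lactation at an unadjusted p under 0.05 by edgeR. With log2 of the casein share as a further term, FABP3 had a slope of -0.82 per 100 days (SE 0.25, edgeR adjusted p = 0.0758) and ACSS2 one of -0.51 (SE 0.20, adjusted p = 0.124), so neither was called.

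The third question was whether the genes followed the milk fat trait of the cows. None of the 8 was called by edgeR, nor was any other gene (0% called), and none of the 8 had an unadjusted p under 0.05, where 2.87% of all genes did. Per 10 units of milk fat the slope was 0.81 for FABP3 (SE 0.84, unadjusted p = 0.342), 0.47 for ACSS2 (SE 0.50, p = 0.354), 0.23 for SCD (SE 0.58, p = 0.699), 0.10 for FASN (SE 0.57, p = 0.863) and 0.08 for ACACA (SE 0.32, p = 0.803). It was 0.16 for SREBF1 (SE 0.26), 0.15 for ACLY (SE 0.19) and 0.12 for ELOVL6 (SE 0.22). Each slope was smaller than its own SE, which does not show that there is no relation. With log2 of the casein share as a further term, 3 of the 8 were higher at an unadjusted p under 0.05 by edgeR. Of all genes 2.48% were, and none of the 8 was called. The Pearson r with milk fat lay between -0.15 for FASN (permutation p = 0.519) and 0.10 for ACLY (permutation p = 0.671), and the Spearman rho between -0.14 for FASN and 0.21 for ACLY. The cow with the highest milk fat value, HY 2 at 10.9, had 151 CPM of FASN and 434 CPM of FABP3, and the cow with the lowest, LY 9 at -14.4, had 173 and 535 CPM. Of the difference of slopes between HY and LY, none of the 8 genes nor any other (0%) was called by edgeR, and the lowest unadjusted p was 0.158, for ELOVL6.

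**Figure D5:**
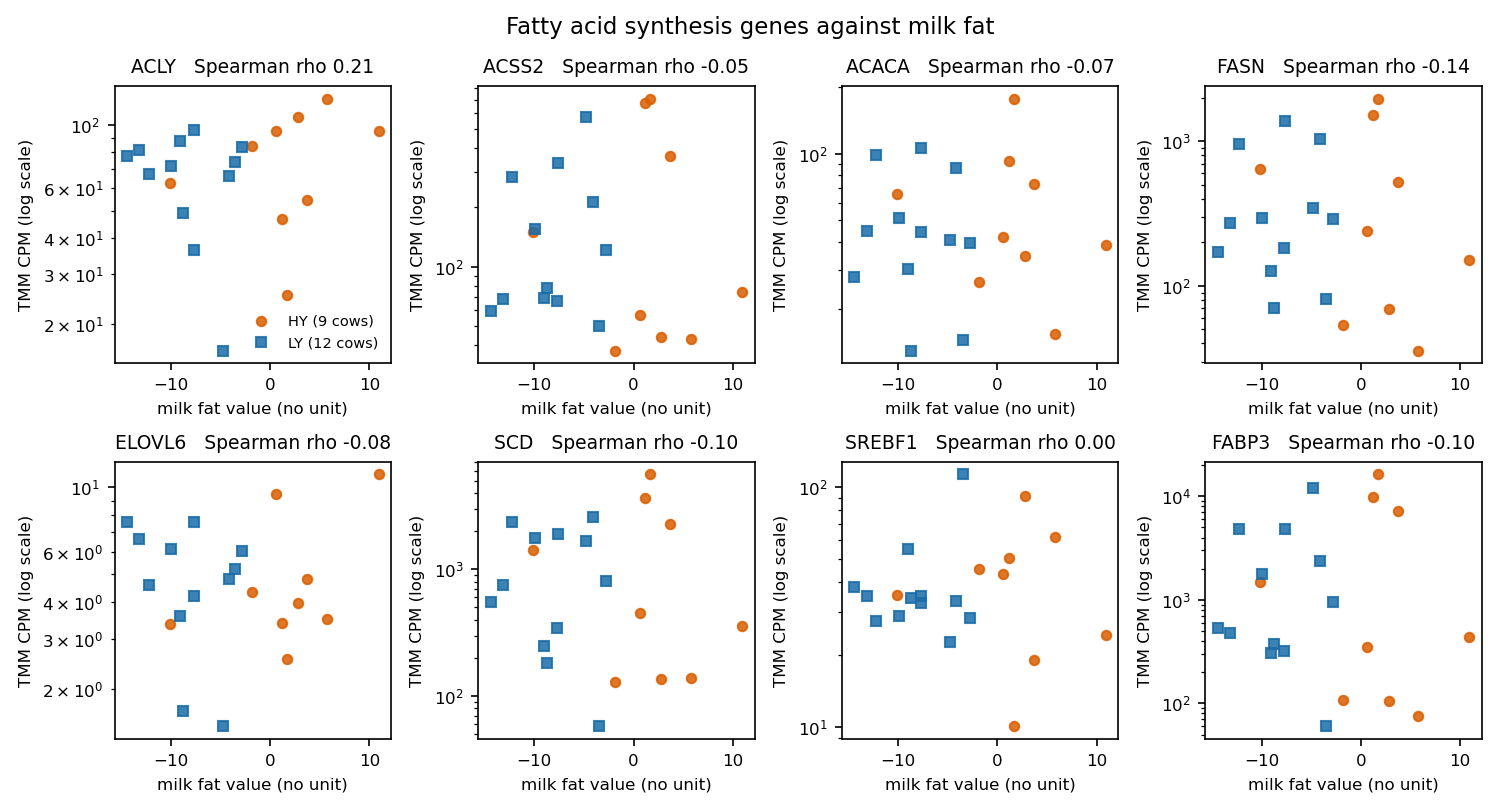
TMM CPM of each gene (log scale) against the milk fat value of the labels (no unit given), with circles for the 9 HY cows and squares for the 12 LY cows. No gene shows a clear trend along the axis, and the rho of each gene is between -0.14 and 0.21.

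Milk fat and milk yield, the latter a breeding value, were related (Pearson r 0.72, permutation p = 0.00025, and Spearman rho 0.73, permutation p = 0.00033). The comparisons with fat, yield and group are therefore not independent. With milk yield none of the 8 genes was called by edgeR, against 0.105% of all genes, and none had an unadjusted p under 0.05, against 3.7% of all genes. The largest slope in size per 100 units of milk yield was 0.05 for ACLY (SE 0.05, unadjusted p = 0.326). Between HY and LY no gene was called (0%), and none of the 8 had an unadjusted p under 0.05, where 4.7% of all genes did. The differences HY minus LY of the mean log2 values were 0.27 for ACACA (SE 0.44), 0.18 for ACLY (SE 0.32), 0.03 for ELOVL6 (SE 0.31), -0.0038 for ACSS2 (SE 0.67), -0.03 for SREBF1 (SE 0.36), -0.04 for SCD (SE 0.87), -0.14 for FASN (SE 0.81) and -0.18 for FABP3 (SE 1.19). By the exact two-sided permutation test over 293930 splits of the cows, p was 0.546 for ACACA, 0.585 for ACLY and 0.857 to 0.995 for the other 6. The differences fitted by edgeR, all uncalled, were 0.73 for FABP3 (SE 0.92), 0.51 for SCD (SE 0.68), 0.47 for ACSS2 (SE 0.57), 0.41 for FASN (SE 0.65), 0.34 for ACACA (SE 0.40), 0.20 for ACLY (SE 0.27), 0.07 for SREBF1 (SE 0.32) and 0.06 for ELOVL6 (SE 0.34). For 5 genes (FABP3, SCD, ACSS2, FASN and SREBF1) the fitted and the mean log2 difference had opposite signs, each being smaller than its SE, so no direction is given. For FABP3 the SD of the log2 values inside HY was 3.03, so a difference of 1 on the log2 scale was within 1 SE at this number of cows. The 8 genes were related to 4 measures each, 32 relations in all. With HY against LY there were 5 comparisons per gene, 40 in all. The adjusted values are those over all genes tested within each comparison.

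Other genes of the pathway were counted by list. Of 69 tested, 10 rose with the casein share (14.5%, against 10.3% of all genes) and 10 fell (14.5%, against 9.73%), by the edgeR test over all genes. Over the 17 cows 5 rose (7.25%, against 5.35% of all genes), which were IDH1, PC, SCD5, PPARGC1A and SLC27A6, and none fell. In the list drawn up around acetyl-CoA and NADPH supply, IDH1, a cytosolic source of NADPH, rose (slope 0.36) and PC rose (0.20). PGD (-0.17), an enzyme of the pentose phosphate pathway, was among the genes of that list that fell. None of 4 genes of carboxylation and malonyl-CoA was called, and MECR, a reductase of mitochondrial fatty acid synthesis, rose (0.17). ACACB, the second acetyl-CoA carboxylase gene, was at no more than 0.480 CPM in any cow. Of 11 elongation genes only ELOVL2 was called, as higher, with a median of 0 CPM and no more than 0.321 CPM in any cow. Of 4 desaturase genes SCD5 rose (1.15) and FADS3 fell (-0.16). Of 18 regulators, PPARGC1A (1.32), THRSP (1.05) and PRKAA2 (0.65) rose, and SCAP (-0.17), SREBF2 (-0.13) and NR1H2 (-0.19) fell. The 3 that rose were at low levels, with at most 15.5, 4.24 and 6.09 CPM, and the median of THRSP was 0 CPM. SCAP escorts the SREBP proteins to the Golgi, and SREBF2 is the sterol counterpart of SREBF1, which fell as well. Of 18 genes of uptake, activation and carriage, LPL (0.18), the lipoprotein lipase, and the transporter SLC27A6 (1.02) rose, and SLC27A1 and ACSL6 were among those that fell. FABP4 (0.11, adjusted p = 0.535) and FABP5 (-0.03, adjusted p = 0.709), other carriers of the family of FABP3, were not called. With the lactation period none of the 69 was called. At an unadjusted p under 0.05, 13 were lower (18.8%, against 12.8% of all genes), INSIG1 (-0.71), a brake on SREBP processing, and NR1H3 (-0.82) among them, and 1 was higher (1.45%, against 9.58% of all genes), PRKAA1 (0.50).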

How the data were processed

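Milk somatic cell RNA of 21 cows was sequenced as 1 paired-end library per cow on an Illumina sequencer. The authors trimmed the reads with Trimmomatic, mapped them to bosTau7 with TopHat2 and Bowtie2, used SAMtools, and counted reads on genes with HTSeq; versions and strand setting are not given in the sources used here. The deposited values are raw counts per gene. Rows naming no gene were left out (0.0360% to 0.151% of counts in the unnamed row), and 23 rows with date-like names were kept as genes without a usable name. Reads that HTSeq left ambiguous between genes were also left out, 0.302% to 1.35% of reads on genes per cow. Near copies could share reads.

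Counts were normalized with TMM and tested by glmQLFit and glmQLFTest of edgeR 4.0.16 in R 4.3.3, over the 12333 genes with a count (12329 with the casein share, the 4 caseins being left out), with Benjamini-Hochberg adjustment over all and 0.05 as threshold. Terms were the group, milk yield per 100 units, milk fat per 10 units, lactation period per 100 days and log2 casein percent. Standard errors were the log2 slope over the root of F. Single values were log2(CPM + 0.25), with two-sided permutation tests of 100000 resamples (exact for the groups) computed directly. Ranks were taken with scipy 1.17.1. Alternatives were DESeq2 1.42.0, its size factors, a minimum of 10 counts in every cow, covariates, the lower mapping class, each cow left out and a pseudocount of 1. The test was tried on simulated data.

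Each of the 8 genes was named in order of its role, with the 3 genes most like it. A few other genes that these rules and lists take in are counted but not reported here by name. The genes, lists and markers were chosen with earlier results of these data known. Cows are separate animals, and replicate numbers follow the order of deposit. All 8 symbols matched RefSeq, whose assembly differs from bosTau7, so coordinates and sequences are not given here.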

Additional observations from a re-analysis of the deposited data

How the results depend on the processing

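The number of the 8 genes called with the casein share was 7 in the reported fit, 6 to 7 in the other settings chosen beforehand, 6 to 7 in the 21 fits without 1 cow, and 5 without the 4 cows poorest in casein. ACSS2, ACACA, FASN, SCD and FABP3 were called as higher in all of these. ACLY, called at an edgeR adjusted p of 0.0355, was not called with the size factors of DESeq2 (0.0595), with at least 10 counts in every cow (0.0566), in the lower mapping class (0.0845), with casein counts removed (0.0534), without the 4 cows (0.221), or in 9 of 21 fits without 1 cow. SREBF1 was not called with the casein percent untransformed (0.0786) or without the 4 cows (0.491). The causes were not tested. In the other 4 comparisons none of the 8 genes was called in any setting, and the lowest adjusted p was 0.0758, for FABP3 with the lactation period and the casein share as a covariate. With that covariate, unadjusted p values under 0.05 appeared for ACACA (0.0232) and SCD (0.00865) between HY and LY, for ACACA with milk yield (0.0322), and for ACSS2 (0.0201), SCD (0.0124) and FABP3 (0.0211) with milk fat, all as higher. Of all genes, 2.25%, 1.62% and 2.48% were higher at an unadjusted p under 0.05 in these 3 fits. The 2 genes under an unadjusted p of 0.05 with the lactation period became 1 in the lower mapping class (FABP3 at 0.0571) and 0 when the period was regressed on expression (0.174 for ACSS2 and 0.194 for FABP3). DESeq2 called 920 genes with the lactation period against 3 by edgeR, and none of the 8 was among them. Of 1192 slopes under other settings, 93 had another sign than the edgeR slope of the same comparison, all uncalled, with p of at least 0.218. A pseudocount of 1 moved r by at most 0.00627. The median slope of all genes was within 0.1 of 0 under each normalization. No paired analysis was possible because the replicate numbers only count cows within a group and pair none. ELOVL6 was counted least of the 8 genes, at 13 to 276 counts per cow.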
